A study of Homo sapiens with 20 samples.

Results

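The spliceosomal small nuclear RNA (snRNA) genes were examined in chromatin immunoprecipitation sequencing of PC-3 cells, an established prostate cancer epithelial line. The members were the GENCODE genes of type snRNA with the symbols of the U1, U2, U4, U5, U6, U4atac, U6atac, U11 and U12 families, together with RNU7-1, which encodes the U7 RNA of histone mRNA processing. Symbols ending in P, the usual mark of a pseudogene, were left out. The rule gave 48 of the 62700 annotated genes, of which 30 were U1 genes and variants, 5 U5, 5 U6, 2 U4 and 1 each of U2, U7, U11, U12, U4atac and U6atac. By chromosome, 31 members lay on chromosome 1, 27 of them U1 genes. The rule used names alone and no measured value, although the set was chosen with earlier results of these data known.

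Wild-type (WT) cells were compared with cells in which SLK, a STE20-family kinase gene, was knocked out (SLK-KO, also labelled PSD10, a name the labels do not explain). Each genotype had 3 POL2 libraries, in which RNA polymerase II was immunoprecipitated, and 3 MYC libraries for the oncogenic transcription factor c-Myc. Cells of both genotypes were grown to the same confluence, no treatment is named, and the labels do not say whether the knockout is 1 clone. The design text calls the 3 libraries of a group biological replicates. The 6 IgG and 2 Input libraries were not analysed here.

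Each library was represented by a list of peak summits, the single bases of highest signal in each called peak, with a score per summit. POL2 lists held 17126, 5047 and 9925 summits in WT replicates 1, 2 and 3, and 19017, 15436 and 16298 in SLK-KO replicates 1, 2 and 3. MYC lists held 365, 201 and 267 summits in WT and 1218, 1420 and 988 in SLK-KO. The sequencing depth is unknown, so list length and depth cannot be told apart. At SLK itself POL2 summits were listed for WT replicates 1 and 3 and for every SLK-KO replicate, a measure that does not check the loss of its protein. Summits lay at the starts of the epithelial keratin genes KRT8, KRT18 and KRT19 in all 6 POL2 libraries and at none of the 4 leukocyte markers PTPRC, CD3E, CD79A and LYZ in any. Of the other epithelial markers, EPCAM had a POL2 summit in 1 WT and 3 SLK-KO libraries and CDH1 in 1 WT library. Of the endothelial and fibroblast markers, COL1A1 had one in 2 WT and 2 SLK-KO libraries and PECAM1 in 1 WT library. CDH5, COL1A2 and DCN had none. Of the prostate luminal markers reported here, TMPRSS2 had POL2 in all 6 libraries and KLK3 in none.

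The spliceosome removes introns from pre-mRNA, and its snRNAs do the recognition. U1 pairs with the 5′ splice site, U2 with the branch site, and U4, U5 and U6 join as a tri-snRNP in which U6 forms the catalytic core. U11, U12, U4atac and U6atac take these places, with U5, in the minor spliceosome. RNA polymerase II transcribes all of these genes except U6 and U6atac, which RNA polymerase III transcribes. Both kinds of promoter carry a proximal sequence element that binds the SNAPc complex. In the polymerase II genes a short box after the gene directs 3′ end cleavage by the Integrator complex, and the RNAs are not polyadenylated.

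The sequences below, read from the GRCh38 reference as DNA and 5′ to 3′, are those of 4 genes among the best-ranked. Capitals mark the bases known to recognise the 5′ splice site in RNVU1-29 and RNU11, those that pair with the branch site in RNU2-2P and the Sm site in RNU4-2.
RNVU1-29 gene (chr1:146376807-146376970, plus strand): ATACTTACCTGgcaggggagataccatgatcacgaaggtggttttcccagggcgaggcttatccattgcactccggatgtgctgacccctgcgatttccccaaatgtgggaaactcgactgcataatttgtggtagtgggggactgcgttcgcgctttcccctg
RNU2-2P gene (chr11:62841619-62841809, minus strand): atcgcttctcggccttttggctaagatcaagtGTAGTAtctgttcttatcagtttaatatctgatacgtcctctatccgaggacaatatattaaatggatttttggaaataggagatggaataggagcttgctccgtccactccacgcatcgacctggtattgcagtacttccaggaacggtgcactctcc
RNU4-2 gene (chr12:120291763-120291903, minus strand): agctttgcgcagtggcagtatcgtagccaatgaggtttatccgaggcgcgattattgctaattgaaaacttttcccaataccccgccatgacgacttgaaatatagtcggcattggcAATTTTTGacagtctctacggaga
RNU11 gene (chr1:28648600-28648733, plus strand): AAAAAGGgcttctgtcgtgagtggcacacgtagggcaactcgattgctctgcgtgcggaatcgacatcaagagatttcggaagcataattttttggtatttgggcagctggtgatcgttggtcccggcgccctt
RNVU1-29, named as a variant U1 locus, held the same 164 bases as RNU1-1. RNU2-2P is a U2 copy whose symbol the rule leaves out and is given here only because earlier results of these data pointed to it. It differed from RNU2-1 by 8 edits over 191 bases.

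POL2 summits were listed at a larger share of snRNA genes than of other genes. A member was given the best-scored summit within 500 bp of either end of its gene. Of the 48 members, 25 (52.1%) had a POL2 summit in all 6 libraries. The same held for 5.76% of all annotated genes, 13.1% of coding genes and 0.216% of the 1853 other snRNA-type genes. A further 9 members had a summit in some libraries and 14 in none. No pair of members shared a summit in any library. The shares over members are descriptions without a test.

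The summits at snRNA genes were also among the highest of every list. Summits are given below by their rank, with 1 for the highest deposited score of a library. Between 7 and 8 of the best 10 summits of each POL2 library lay at members, between 10 and 13 of the best 20, and between 18 and 20 of the best 100. Among the best 1000, the count reached 24 or 25. The plot of summits at snRNA genes by list depth shows the 6 libraries side by side.

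**Figure D1:**
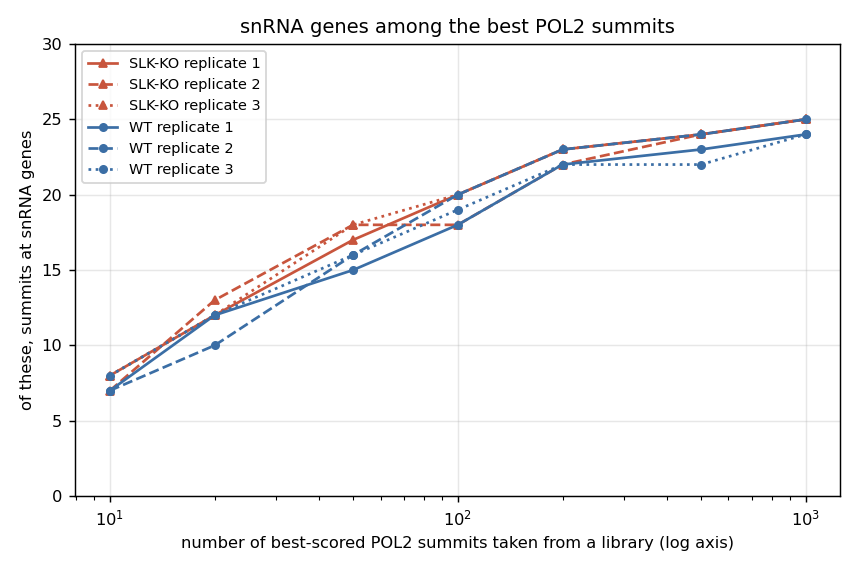
Number of summits at snRNA genes (vertical axis) among the best-scored 10 to 1000 summits (horizontal log axis) of each of the 6 POL2 libraries, 1 line per library. The lines run from 7 or 8 among the best 10 to 24 or 25 among the best 1000.

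The U1 genes, whose RNA starts spliceosome assembly, held the best member ranks. RNVU1-29 on chromosome 1 ranked 2, 2 and 2 in the WT libraries and 1, 3 and 1 in the SLK-KO libraries. RNVU1-14 ranked 3, 4 and 3 in WT and 3, 2 and 3 in SLK-KO. RNVU1-27 ranked 5, 8 and 5 in WT and 4, 7 and 4 in SLK-KO. The ranks of the genotypes overlapped at each of these 3 loci. Of the 30 U1 genes, 15 had a summit in all 6 libraries, 3 in some and 12 in none, and the median ranks of the 15 ran from 2 to 7578 with a midpoint of 28.5. RNVU1-15 ranked 5 to 9, RNVU1-6 9 to 13 and RNVU1-7 20 to 37, with overlapping genotypes. The 3 U1 genes with POL2 in some libraries were RNU1-2, RNVU1-24 and RNVU1-34. RNU1-2 ranked 10044 in WT replicate 1 and 11168, 14441 and 5985 in SLK-KO. RNVU1-34, which lies within TEX14, ranked 3974 and 7617 in WT replicates 1 and 3 and 991, 725 and 730 in SLK-KO.

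Loci close to the canonical U1 sequence were found both with and without POL2. The bases in capitals in RNVU1-29, which pair with the 5′ splice site, opened 15 of the 30 U1 genes, and 8 of these had POL2 in all 6 libraries and 6 in none. Of the other 15, 7 had POL2 in all 6 libraries and 6 in none. The 15 loci with POL2 in all 6 libraries were 73.2% to 100% identical to RNU1-1 over the gene (median 90.9%), and the 12 without were 60.4% to 100% identical (median 91.8%). Of the 6 loci identical to RNU1-1, including RNU1-1 itself, 3 had POL2 in all 6 libraries and 2 in none. RNU1-1 ranked 10, 7 and 10 in WT and 14, 12 and 13 in SLK-KO, so its ranks did not overlap between genotypes. RNVU1-18, another locus with that sequence, ranked 124, 109 and 101 in WT and 129, 103 and 97 in SLK-KO.

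Of the U4 genes, 1 had POL2 in all 6 libraries. RNU4-2 ranked 6, 5 and 4 in WT and 5, 4 and 6 in SLK-KO, the same set of ranks in both genotypes. RNU4-1 lies 1193 bp from it on chromosome 12 and differs by 4 edits over 141 bases. RNU4-1 had a summit only in WT replicate 2, at rank 49, the library with the shortest list. In the other 5 libraries the nearest summit lay 1428 to 1454 bp along from its start, at RNU4-2. The lists give 1 position per peak and no peak extent, and no pair of POL2 summits in a library lay closer than 269 bp, so whether a peak at RNU4-2 also covered RNU4-1 was not tested.

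All 5 members of the U5 family, whose RNA aligns the exons, had POL2 in all 6 libraries. RNU5E-1 ranked 12, 13 and 7 in WT and 9, 13 and 7 in SLK-KO. RNU5B-1 ranked 16, 24 and 16 in WT and 7, 10 and 14 in SLK-KO. RNU5A-1 ranked 20, 22 and 20 in WT and 15, 14 and 10 in SLK-KO. At RNU5B-1 and RNU5A-1, which lie 8510 bp apart on chromosome 15, every SLK-KO rank was better than every WT rank. RNU5D-1 ranked 32, 62 and 25 in WT and 35, 30 and 30 in SLK-KO. RNU5F-1, which lies 9152 bp from it within ARMH1, ranked 136, 87 and 95 in WT and 79, 126 and 77 in SLK-KO. The genotypes overlapped at RNU5E-1, RNU5D-1 and RNU5F-1.

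The 3 minor spliceosome genes transcribed by polymerase II had POL2 in all 6 libraries. RNU11, which recognises the 5′ splice site of minor introns, ranked 8, 14 and 9 in WT and 9, 9 and 8 in SLK-KO. RNU4ATAC, the partner of U6atac, lies within CLASP1 and ranked 18, 12 and 18 in WT and 24, 26 and 21 in SLK-KO. RNU12, which recognises the minor branch site, ranked 35, 27 and 31 in WT and 28, 22 and 27 in SLK-KO. The ranks of RNU4ATAC did not overlap between genotypes, and those of RNU11 and RNU12 did. RNU11 lies 309 bp from the start of TAF12 and RNU12 lies 282 bp from that of POLDIP3. The part of these coding genes in the summits was not tested. RNU7-1, within C12orf57, ranked 167, 99 and 134 in WT and 170, 132 and 113 in SLK-KO.

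U2 gave no value at the locus the rule names. RNU2-1 on chromosome 17, a unit of the U2 repeat array, had no POL2 summit in any library. RNU2-2P on chromosome 11, which overlaps the start of WDR74, ranked 1, 1 and 1 in WT and 2, 1 and 2 in SLK-KO. Its summit lay 186 to 191 bp from its start, at the end of the gene.

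**Figure D2:**
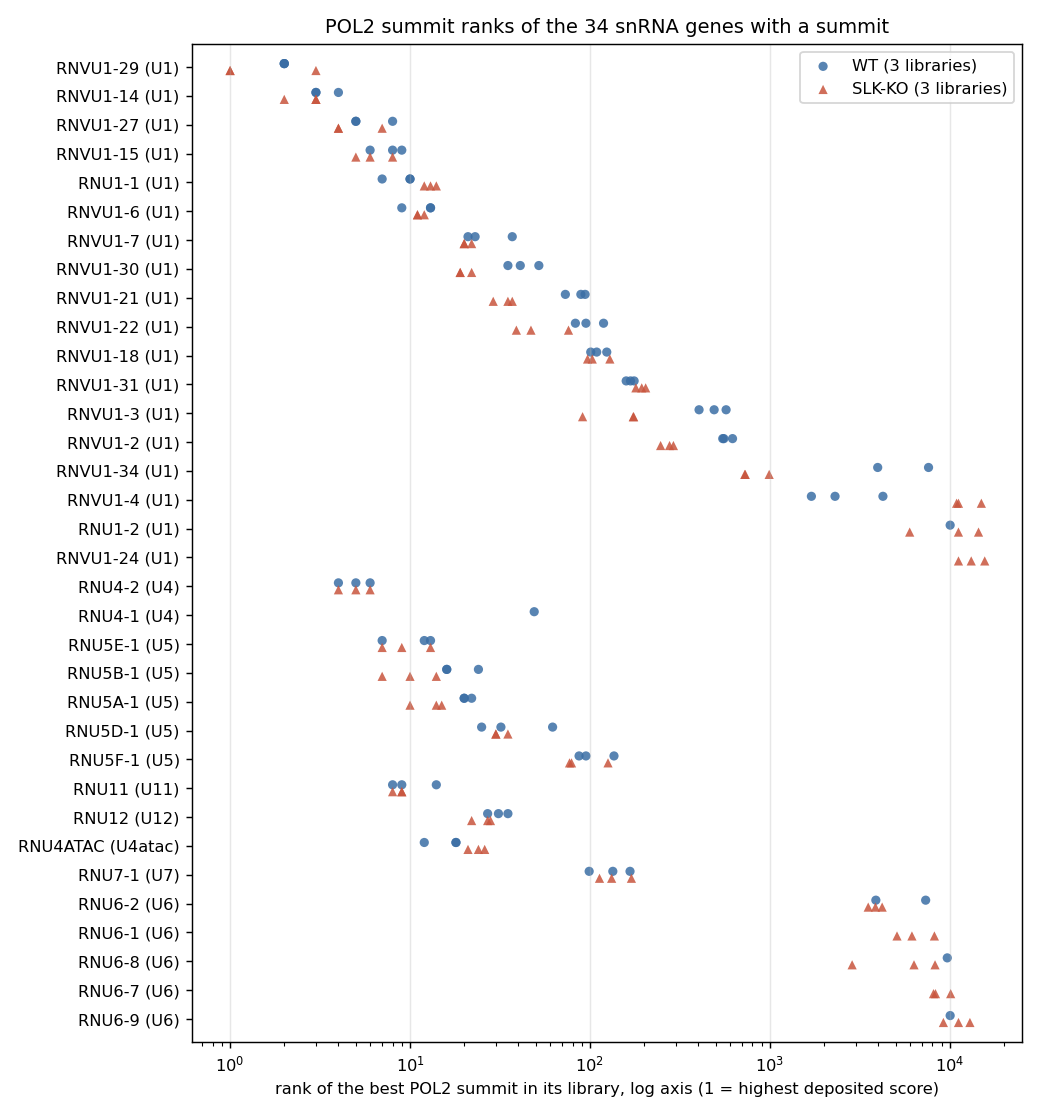
Rank of the best POL2 summit (horizontal log axis, 1 for the highest deposited score of a library) at each of the 34 snRNA genes with a summit, grouped by class. Circles are the 3 WT and triangles the 3 SLK-KO libraries, and RNVU1-29 sits between 1 and 3. The U6 genes sit at ranks of 2865 and above, as do the U1 genes RNU1-2 and RNVU1-24.

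The U6 genes, transcribed by polymerase III, had POL2 summits at low ranks and in some libraries only. None of the 6 polymerase III members (5 U6 genes and RNU6ATAC) had a POL2 summit in all 6 libraries, against 25 of the 42 polymerase II members. Members were assigned to a polymerase by the class in their name, and whether each locus is transcribed was not tested. Of those 42, 13 had no summit and 4 had one in some libraries. Low ranks were not particular to U6 genes, as the U1 genes RNU1-2 and RNVU1-24 ranked 5985 to 14441 and 11174 to 15632. RNU6-1 had no WT summit and ranked 8210, 5088 and 6159 in SLK-KO. RNU6-7 had no WT summit and ranked 8325, 10110 and 8118 in SLK-KO. RNU6-8 ranked 9679 in WT replicate 1 and 2865, 8278 and 6324 in SLK-KO. RNU6-2 ranked 3881 and 7341 in WT replicates 1 and 3 and 3520, 4207 and 3861 in SLK-KO. RNU6-9 ranked 10044 in WT replicate 1 and 12934, 11174 and 9212 in SLK-KO. RNU6ATAC, the catalytic RNA of the minor spliceosome, had no summit. RNU6-1, RNU6-2 and RNU6-9 are identical over the gene, and RNU6-7 and RNU6-8 differ from them by 1 edit, so a WT summit was listed at some copies of 1 sequence and not at others.

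Summit positions are given from the annotated start. At the 25 members with POL2 in all 6 libraries none of the 150 summits lay upstream of the start, 81 lay within the gene and 69 beyond its end. The median distance from the start was 129.5 bp, with a range of 36 to 262 bp. Per library the member median was 123, 135 and 123 bp in WT and 137, 125 and 135 bp in SLK-KO, ranges that overlap (127 ± 6.93 and 132 ± 6.43 bp, mean and SD, n = 3 each). Over coding genes with POL2 in all 6 libraries the median per library was 57 to 63 bp.

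At RNU6-1, RNU6-7 and RNU6-8 the best-scored summit lay upstream instead. Relative to the start, with upstream positions negative, it stood at -347, -369 and -340 bp in SLK-KO replicates 1, 2 and 3 of RNU6-1. At RNU6-7 it stood at -332, -358 and -345 bp. At RNU6-8 it stood at -426 bp in WT replicate 1 and at -398, -384 and -358 bp in SLK-KO, with a second summit at 203 bp in SLK-KO replicate 1. Among the polymerase II members with POL2 in some libraries, RNVU1-24 also had upstream summits, at -50 and -58 bp in SLK-KO replicates 2 and 3, and 1 at 92 bp in replicate 1. At RNU6-2 and RNU6-9 the summits lay 35 to 161 bp after the start. RNU6-9 lies 266 bp from the start of MED16 and RNU6-2 lies 343 bp from that of TMEM259, and the part of these coding genes in the summits was not tested.

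The spread of position differed by locus. At RNU1-1 all 6 summits lay 213 or 214 bp from the start and at RNVU1-18 all 6 lay 36 or 37 bp from it. RNVU1-29, with the same transcribed sequence, varied from 177 to 211 bp (193 ± 14.5 bp, mean and SD over 6 libraries). Of the 25 members RNU5F-1 had the largest SD, with summits from 98 to 262 bp (151 ± 57.8 bp). In RNU1-1 and RNVU1-18, 13.4% and 9.76% of the 50-base windows centred in the gene occurred once in the reference, against 24.4% in RNVU1-29. The part of this in the fixed positions was not tested.

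**Figure D3:**
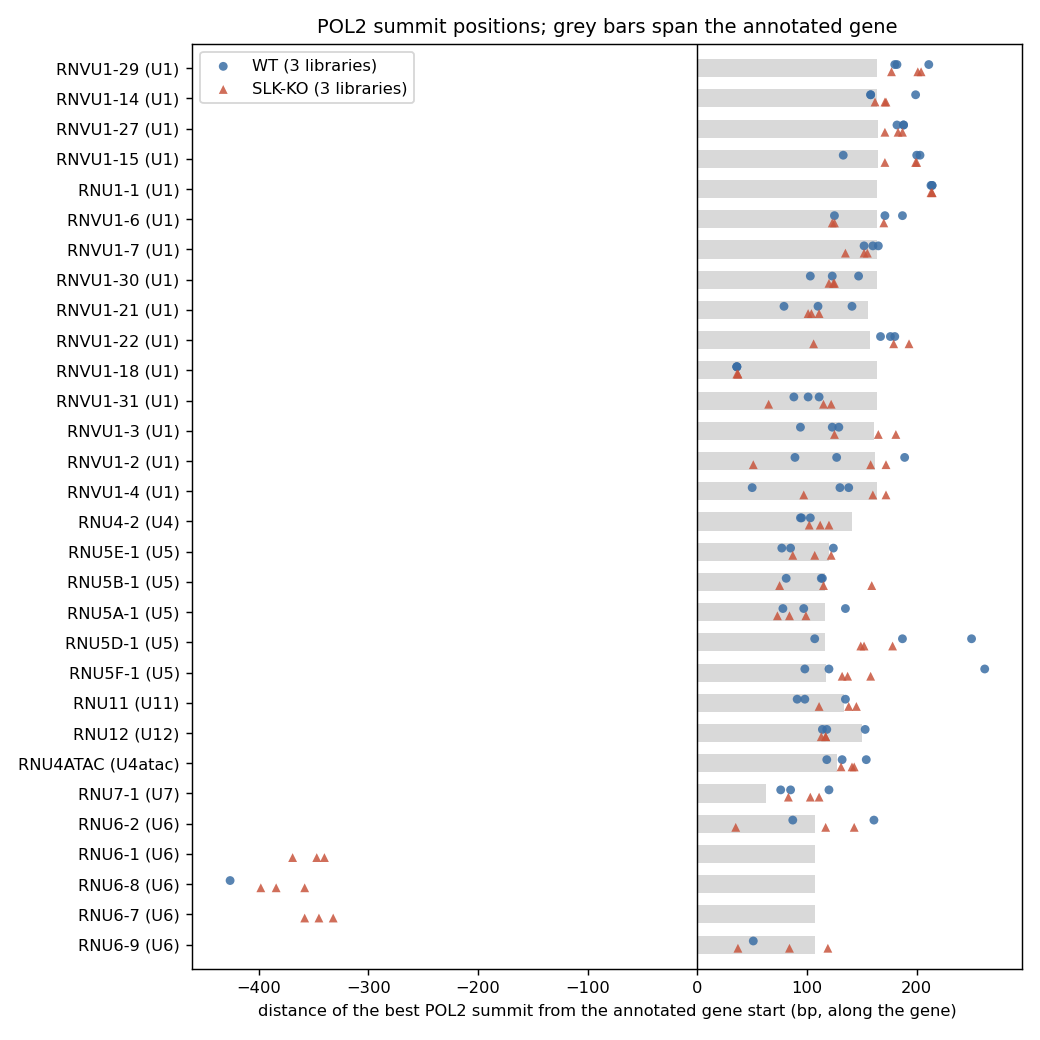
Distance of the best POL2 summit from the annotated start (horizontal axis, bp along the gene) at the 25 members with POL2 in all 6 libraries and at the 5 U6 genes. Grey bars span the genes, circles are WT and triangles SLK-KO libraries. RNU6-1, RNU6-7 and RNU6-8 are, of the genes plotted, those with summits to the left of the start.

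The windows 72 to 38 bases before the start, where the proximal sequence element lies, are shown for genes of both kinds. Capitals mark matches to ACCNTNA or to ACC, any 8 bases and AAA, letters chosen after these sequences had been seen. In RNU11 and RNU6-1 both forms begin at the same base, and only the shorter is in capitals.
RNVU1-29 upstream (chr1:146376735-146376769, plus strand): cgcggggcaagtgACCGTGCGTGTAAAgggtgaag
RNU2-2P upstream (chr11:62841847-62841881, minus strand): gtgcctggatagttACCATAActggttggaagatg
RNU4-2 upstream (chr12:120291941-120291975, minus strand): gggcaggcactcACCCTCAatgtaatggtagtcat
RNU5E-1 upstream (chr1:11908080-11908114, plus strand): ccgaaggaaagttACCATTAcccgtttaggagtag
RNU11 upstream (chr1:28648528-28648562, plus strand): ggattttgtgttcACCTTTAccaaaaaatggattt
RNU7-1 upstream (chr12:6943744-6943778, plus strand): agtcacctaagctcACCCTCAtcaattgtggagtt
RNU6-1 upstream (chr15:67840083-67840117, minus strand): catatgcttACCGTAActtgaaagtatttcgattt
RNU4ATAC upstream (chr2:121530809-121530843, plus strand): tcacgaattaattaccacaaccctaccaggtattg
The match began 58 to 60 bases before the start in the polymerase II genes shown that have a match and 63 bases before it in RNU6-1. RNU4ATAC held neither form. Searched on both strands, 33 of the 48 members (68.8%) held either form in this window, against 3.63% of 35116 RefSeq promoters of GRCh38.p14 and 7.12% of the other snRNA-type genes. Of the 25 members with POL2 in all 6 libraries 21 held a match, and of the 14 with no summit 8 did. Since the letters were chosen from these genes, the counts describe them and support nothing further.

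Elements outside the proximal window were less common. The octamer ATGCAAAT, searched on both strands from 250 bases before to 50 after the start, was in 13 of the 48 members (27.1%) and in 1.77% of RefSeq promoters. It was in 8 of the 25 members with POL2 in all 6 libraries and 1 of the 14 without a summit. CCCA, any 2 bases and ATGC, a core of the ZNF143 motif searched on both strands of that window, was in 4 members, all of them U5 genes (RNU5E-1, RNU5F-1, RNU5D-1 and RNU5B-1), and in 1.73% of RefSeq promoters. TATAA or TATAT, searched on the sense strand 36 to 18 bases before the start, was in 4 members (8.33%), RNU6-1, RNU6-7, RNU6-8 and RNU7-1, against 4.72% of RefSeq promoters and 6.69% of the other snRNA-type genes. A TATA box is known to set polymerase III use at snRNA promoters, but RNU6-2, RNU6-9 and RNU6ATAC did not hold these letters in this window and RNU7-1, a polymerase II gene, did. No match says only that these letters are not in the window.

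The first 40 bases after the gene, where the 3′ box lies, are shown for 4 genes, with AAANNNAGA in capitals.
RNU1-1 downstream (chr1:16514082-16514121, minus strand): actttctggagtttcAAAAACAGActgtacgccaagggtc
RNU5E-1 downstream (chr1:11908272-11908311, plus strand): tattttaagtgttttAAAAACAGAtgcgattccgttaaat
RNU12 downstream (chr22:42615394-42615433, plus strand): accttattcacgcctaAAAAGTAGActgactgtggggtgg
RNVU1-29 downstream (chr1:146376971-146377010, plus strand): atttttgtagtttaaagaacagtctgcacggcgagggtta
AAANNNAGA was searched on the sense strand. It was in 14 of the 48 members (29.2%), against 15.9% of the other snRNA-type genes. It was in 8 of the 25 members with POL2 in all 6 libraries (32%) and in 5 of the 14 with no summit (35.7%). RNVU1-29, the best-ranked member, lacked these letters.

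The 14 members without any POL2 summit were RNU1-3, RNU1-4, RNU2-1, RNU6ATAC, RNVU1-1, RNVU1-8, RNVU1-17, RNVU1-19, RNVU1-23, RNVU1-25, RNVU1-26, RNVU1-28, RNVU1-32 and RNVU1-33. Many snRNA loci are repeated in the genome, and the peak lists do not say how reads with several matches were treated. The share of 50-base windows found once in the reference, within 500 bp of the gene, was therefore counted for every member. It was 0% at RNU1-3 and RNU1-4, which are identical to RNU1-1 over the gene, and 20.8% at RNU2-1, where no window centred in the gene was unique. RNVU1-26 and RNVU1-28 had 34.3% and 25.5%, and 0% once the alternate sequences of the reference were counted. Of 82 sequence names in the lists 24 were not in this reference, so copies on those sequences were not counted.

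Loci without a summit lay at both ends of this scale. Of the 14, 7 had between 92% and 99.9% unique windows, namely RNU6ATAC, RNVU1-1, RNVU1-8, RNVU1-17, RNVU1-23, RNVU1-32 and RNVU1-33. In the other direction 5 of the 25 members with POL2 in all 6 libraries had under 50% unique windows, from 19.7% at RNVU1-18 to 44.7% at RNVU1-14, which ranked 2 to 4. The median was 92.3% over the 25 members and 75.7% over the 14. The part of repeated sequence in the absent summits was not tested.

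**Figure D4:**
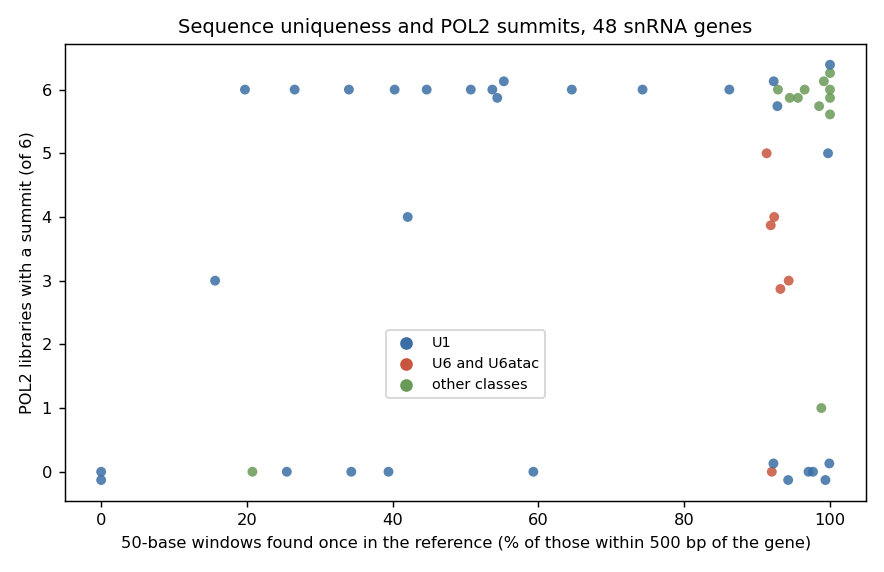
Share of 50-base windows within 500 bp of each of the 48 snRNA genes that occur once in the reference (horizontal axis, percent) against the number of POL2 libraries with a summit (vertical axis, of 6; points at the same count are spread slightly up and down to be visible). Members without a summit lie at both ends of the horizontal axis, 2 of them at 0% and 7 above 90%.

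The genotypes differed in how many members had a POL2 summit, and this moved with list length. WT libraries had summits at 30, 26 and 27 members (27.7 ± 2.08, mean and SD, n = 3) and SLK-KO libraries at 33, 33 and 33 (33 ± 0). Over all annotated genes the share with a POL2 summit was 11.8% ± 4.90 in WT and 16.4% ± 0.677 in SLK-KO (mean and SD, n = 3), a larger rise in proportion than from 57.6% to 68.8% of the members. The difference of 5.33 members became 0.333 when every list was reduced to its best 5047 summits, the length of the shortest. POL2 in 3 SLK-KO and 0 WT libraries was seen at 3 members, RNU6-1, RNU6-7 and RNVU1-24. Among annotated genes with a POL2 summit in any library, 3.03% had this pattern. RNVU1-24 ranked 15632, 11174 and 13153 in the 3 SLK-KO libraries. At equal list length none of the 3 members kept the pattern. Without WT replicate 1, which had the longest WT list, the count was 6. For annotated genes with a POL2 summit in any library, that setting was not counted. No member had POL2 in 3 WT and 0 SLK-KO libraries, a pattern of 0.102% of those genes, but at equal list length 1 member, RNVU1-4, did.

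Ranks at the 25 members with POL2 in all 6 libraries were compared between genotypes within a test over all 3612 genes that had a summit in all 6. The test was an exact two-sided permutation of the genotype labels on log2 ranks with Benjamini-Hochberg adjustment, and its smallest possible p, with 3 against 3 libraries, was 0.1. A call therefore means only that the ranks of the genotypes did not overlap. At 7 members every SLK-KO rank was better than every WT rank, a pattern shared by 12.2% of the 3612 genes. At 4 members every SLK-KO rank was worse, a pattern shared by 18.2%. At each of these 11 members the exact permutation p was 0.1 and the Benjamini-Hochberg adjusted p was 0.328, and no gene of the 3612 reached an unadjusted p under 0.05 in this permutation test. Without WT replicate 2, whose list was the shortest, 11 of 27 members ranked better, as did 18.2% of the 6521 genes then tested. With each rank divided by its list length, 12 members ranked better and 0 worse in SLK-KO, and the shares over all genes were 24.4% and 0.692%.

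The 7 members that ranked better in SLK-KO were 5 U1 variants and the U5 genes RNU5B-1 and RNU5A-1. RNVU1-3 ranked 490, 404 and 571 in WT and 91, 174 and 175 in SLK-KO, a log2 rank difference of -1.78 ± 0.345 (SE, n = 3 and 3). RNVU1-21 ranked 73, 94 and 89 in WT and 29, 37 and 35 in SLK-KO, a difference of -1.34 ± 0.154. RNVU1-2 ranked 547, 555 and 620 in WT and 291, 277 and 247 in SLK-KO, a difference of -1.08 ± 0.0904. At these 3 genes all SLK-KO libraries ranked the gene higher in the list.

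The other 4 of these members were RNVU1-30, RNVU1-22, RNU5B-1 and RNU5A-1. RNVU1-30 ranked 52, 41 and 35 in WT and 22, 19 and 19 in SLK-KO (-1.08 ± 0.18). RNVU1-22 ranked 95, 119 and 83 in WT and 76, 39 and 47 in SLK-KO (-0.92 ± 0.324). The differences were -0.88 ± 0.348 at RNU5B-1 and -0.69 ± 0.186 at RNU5A-1. When ranks were taken only among the 3612 genes, RNVU1-22 overlapped between genotypes and the others of the 7 did not.

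The 4 members that ranked worse in SLK-KO were RNVU1-4, RNU4ATAC, RNU1-1 and RNVU1-31, of which the last 3 changed sign when ranks were divided by list length. RNVU1-4, a U1 variant 79.9% identical to RNU1-1, ranked 2302, 4249 and 1701 in WT and 14974, 11174 and 10907 in SLK-KO, a difference of 2.26 ± 0.415. This difference was 0.63 when ranks were taken only among the 3612 genes and 1.43 when ranks were divided by list length. The differences were 0.58 ± 0.215 at RNU4ATAC and 0.55 ± 0.183 at RNU1-1. RNVU1-31 ranked 176, 159 and 168 in WT and 180, 204 and 194 in SLK-KO (0.20 ± 0.0674). With that division all values moved by -0.83 together, including the median of the 3612 genes (from 0.12 to -0.71). On that scale the differences were -0.24 at RNU4ATAC, -0.28 at RNU1-1 and -0.63 at RNVU1-31, and RNVU1-4 kept its sign with overlapping groups.

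Of the 7 better-ranked members 5 lay in 1 stretch of chromosome 1, from RNVU1-22 to RNVU1-30 (chr1:148263476-149636929), a stretch delimited after these values were seen. It held 6 members with POL2 in all 6 libraries, and 5 of them ranked better and none worse in SLK-KO. The sixth, RNVU1-27, ranked 5, 8 and 5 in WT and 4, 7 and 4 in SLK-KO (-0.28 ± 0.351). Of the 13 tested members elsewhere on chromosome 1, none ranked better in every SLK-KO library and 3 ranked worse. Since the stretch was drawn around the better-ranked members of chromosome 1, this split follows from how it was drawn. Over all 3612 genes tested, 12.2% ranked better and 18.2% worse.

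Other POL2 sites near these genes were few, and they were not chosen for their values as the stretch was, so the 2 sets cannot be compared. The stretch held a single other POL2 site in all 6 libraries, and its difference was 0.29 with overlapping groups. Within 1 Mb of RNVU1-22, RNVU1-21, RNVU1-2 and RNVU1-3 there were 2 such sites, with a median difference of 0.16 and no separation of the genotypes. Within 1 Mb of RNVU1-30 there were 5, with a median of -0.41, of which 2 ranked better in SLK-KO. Over the 325 sites on chromosome 1 away from members the median was -0.12, with 59 better and 28 worse, against 0.13 over 2838 such sites in the genome, with 374 better and 531 worse. The share of POL2 summits that fell in the stretch was 0.0759%, 0.139% and 0.0907% in WT and 0.0841%, 0.104% and 0.0859% in SLK-KO, so the genotypes overlapped.

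**Figure D5:**
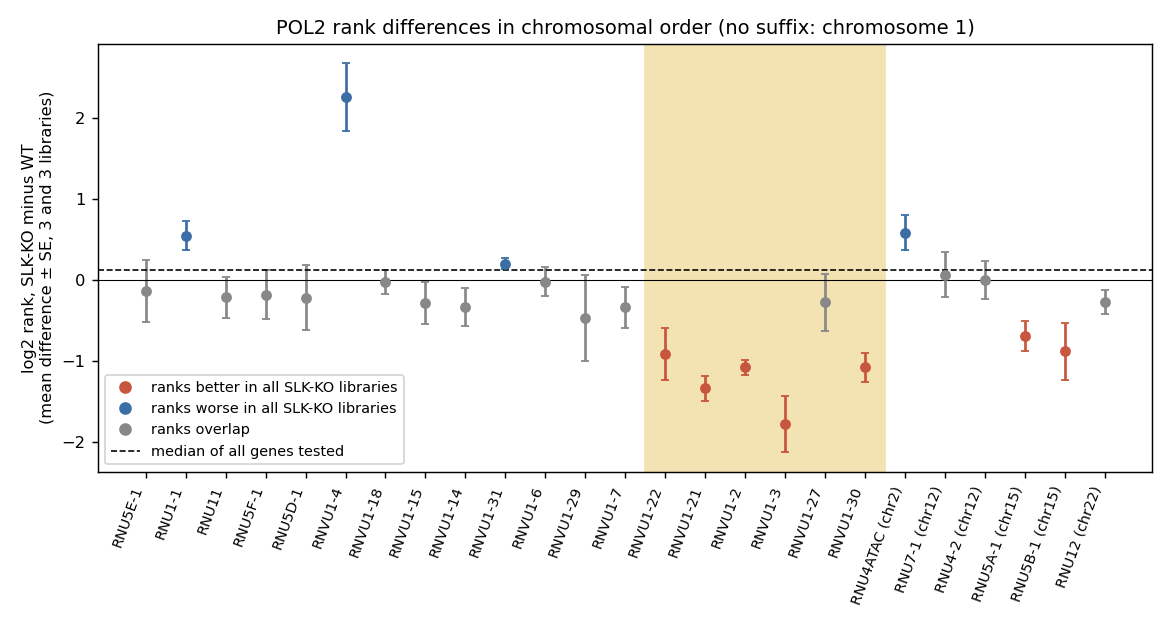
Difference of mean log2 POL2 rank, SLK-KO minus WT (vertical axis, ± SE from 3 and 3 libraries; negative values mean a better rank in SLK-KO), at the 25 members with POL2 in all 6 libraries in chromosomal order. The shaded stretch from RNVU1-22 to RNVU1-30 was delimited after these values were seen. It holds 5 of the 7 members with better ranks in every SLK-KO library. The dashed line is the median of 3612 genes.

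MYC summits were listed at 3 snRNA genes, each in 1 library. No member had a MYC summit in any WT library, and 0 of 48 allows a share of up to 6.25% (3 counts of the total, counting error only). In SLK-KO replicates 1, 2 and 3 the numbers were 0, 2 and 1. RNVU1-21 had a summit at rank 987 and RNU5B-1 at rank 436 of 1420 in replicate 2, and RNVU1-6 had one at rank 899 of 988 in replicate 3. The summits lay 42, 224 and 284 bp from the starts. No member had MYC in 3 SLK-KO and 0 WT libraries, a pattern of 0.249% of all annotated genes. No member had MYC in 2 or more libraries, against 1.52% of all annotated genes, 3.61% of coding genes and 13.9% of the 3612 genes with POL2 in all 6 libraries. MYC in at least 1 library was seen at 3 of the 48 members (6.25%), against 3.06% of all annotated genes, and at 3 of the 25 members with POL2 in all 6 libraries, against 25.2% of the 3612 genes. With 48 members these shares rest on too few summits to set the members apart from other genes. CACGTG, the E-box bound by MYC, was absent from both strands of the 300-base promoter window (250 before to 50 after the start) of all 48 members. It was present in 7.26% of RefSeq promoters and in 2.81% of the other snRNA-type genes. The MYC lists of SLK-KO were also longer, and at equal list length none of the 3 summits was left.

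Other RNA genes gave a reference for these levels. Of 9 non-spliceosomal RNA genes with snRNA-type polymerase II promoters, 4 had POL2 in all 6 libraries and none had MYC in any library. SNORD118, the U8 snoRNA, ranked 41, 40 and 39 in WT and 27, 27 and 28 in SLK-KO, without overlap. SNORD13 ranked 80 to 130, TERC, the telomerase RNA, 306 to 646, and SCARNA2 396 to 1598. The 5 without POL2 were the SNORD3 (U3) genes of the list. Of 14 listed polymerase III genes 13 matched the annotation by symbol, and 1 had POL2 in all 6 libraries, the signal recognition particle RNA gene RN7SL1, which ranked 260 to 474 and also had MYC in 1 WT and 3 SLK-KO libraries.

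The coding genes that make and handle snRNAs were read within 500 bp of any annotated start, where 16.8% of all coding genes had POL2 in all 6 libraries. Of the 32 genes for the SNAPc, Integrator and related factors, 12 had POL2 in all 6 libraries. None of the 32 had POL2 in 3 SLK-KO and 0 WT libraries, a pattern of 2.82% of coding genes with POL2 in any library, and none had the reverse, a pattern of 0.0476%. MYC in 3 or more libraries was seen at 1 of them, against 2.65% of coding genes. It was NABP1, a single-stranded DNA-binding protein that associates with Integrator subunits, which had MYC in every SLK-KO library and in no WT library. Its POL2 ranks were 166, 181 and 207 in WT and 237, 244 and 243 in SLK-KO. Of 16 export and assembly genes 5 had POL2 in all 6 libraries. SNUPN, which imports snRNPs, and GEMIN7, of the SMN complex, had POL2 in 3 SLK-KO and 0 WT libraries. Among coding genes with POL2 in any library 2.82% had this pattern. GEMIN7 ranked 10281, 10173 and 7882 in SLK-KO, and SNUPN 9899 and 8604 in SLK-KO replicates 1 and 2. All these ranks lie beyond the 5047 summits of the shortest WT list. The 2 genes were not counted at equal list length. MYC was present in 3 or more libraries at GEMIN6 (3 WT and 2 SLK-KO), GEMIN7 (2 and 2) and NCBP2, the small cap-binding subunit (0 and 3). The MYC lists of SLK-KO were longer than those of WT, and the MYC counts of these coding genes were not repeated at equal list length.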

How the data were processed

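Chromatin immunoprecipitation libraries for MYC and POL2 were compared between WT and SLK-KO PC-3 cells, 3 libraries per antibody and genotype, grouped by sample titles. The series' design text states paired-end reads of 50 bp and the nf-core/chipseq pipeline. The submitters' processing notes name Trim Galore 0.6.7, BWA 0.7.18-r1243, Picard 3.2.0 and MACS3 3.0.1 and the build GRCh38.p14. The control library, the caller's options and the handling of reads with several matches are not given in the sources used here. The deposited score of each summit was read as −log10 of the caller's q-value, as its lowest value in each list was just above 1.3. It is the authors' value and was used only to rank summits within a list. The lists hold no read counts, so depth is unknown.

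Equal scores shared the better rank. Each gene of GENCODE release 44 was given the best-scored summit within 500 bp of the gene, the first 200 bases standing for longer genes. Coding genes of the comparison lists used any annotated start. Other POL2 sites were summits chained at 200 bp or less. Log2 ranks were compared by exact permutation over libraries (20 relabellings), adjusted over 3612 genes. Differences are given with their SE over libraries. The procedure was run on simulated data with shifts larger than any difference among the genes tested, so smaller shifts were not checked. Sequences came from GRCh38. Of 82 sequence names in the lists, 58 matched the reference. None of the 48 members had an entry in the RefSeq promoter table, which served as the motif background. Python 3.11.15 with numpy 2.4.6, pandas 2.3.3 and pysam was used.

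Named members were the best of each class among those with POL2 in all 6 libraries (3 for U1), all such U5 genes, members with POL2 in 3 libraries of one genotype and 0 of the other, members with MYC in 2 or more libraries, and RNU2-2P. Other members named were singled out after their values were seen. The members and lists were chosen with earlier results of these data known. The IgG and Input libraries were left out because no summit list was analysed for them. Alternatives were other windows (200 bp, 1000 bp, start only), a score of at least 5, lists of equal length, percentile ranks, the summit nearest the start, ranks among the tested genes only, a replicate block and the removal of 1 library at a time. Some items are not reported here.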

Additional observations from a re-analysis of the deposited data

How the results depend on the processing

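Members with POL2 in all 6 libraries numbered 24 to 27 under every alternative, those with MYC in 2 or more libraries 0, and the median summit position was 125 to 132 bp. The excess of members with a POL2 summit in SLK-KO fell from 5.33 to 2.67 with a window of 200 bp and to 0.333 with lists of equal length, and ranged from 4.5 to 6.5 with a library left out. No member was dropped for a summit nearer to a coding start. Members with POL2 in 3 SLK-KO and 0 WT libraries numbered 1 with the 200 bp window, which leaves out the upstream summits of RNU6-1 and RNU6-7, 0 with equal lists, and 3 to 6 with a library left out (6 without WT replicate 1). The reverse pattern numbered 1 with equal lists. With ranks as percentiles 12 members were better in SLK-KO and 0 worse, against 24.4% and 0.692% of all genes tested. The lists of WT replicates 2 and 3 were shorter than every SLK-KO list, which raises their percentiles, and that of WT replicate 1 was not. Values that changed sign on that scale were RNU1-1 (-0.28), RNVU1-31 (-0.63), RNU4ATAC (-0.24) and RNU7-1 (-0.76). Relative to the median of all genes these differences did not change. Leaving out 1 library gave 7 to 11 better members (11 without WT replicate 2) and 4 worse. The shares over all genes then tested were 15.3% to 18.2% better and 22.2% to 25.4% worse. All other alternatives kept each called member on its side, except RNVU1-22 and RNVU1-31 when ranks were taken among the genes tested and RNVU1-4 as a percentile (1.43). RNVU1-4 fell from 2.26 to 0.63 when ranked among the genes tested. Replicate numbers did not pair the libraries (correlations of deviations 0.0111, 0.0212 and 0.0228). With a replicate block the excess was 5.33 members, and 10 members were better and 4 worse in all 3 pairs, against 19.4% and 27.8% of all genes tested, where 8 sign flips allow no p below 0.25. Depth is unknown, which limits every absent summit.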

Other observations

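Several of the best POL2 summits lay outside the members. On the unplaced scaffold KI270713.1 a summit ranked 15, 18 and 14 in WT and 16, 18 and 15 in SLK-KO. It lay at positions 22028 to 22030, a few bases before a sequence 100% identical to RNU1-1 on the minus strand, from 21861 to 22024. Whether the GENCODE genes used here cover unplaced scaffolds was not tested, so the lack of a listed gene there says nothing. On chromosome 17 a summit at 58631681 to 58631735, inside TEX14 at a gene named U3, ranked 4, 3 and 6 in WT and 6, 8 and 11 in SLK-KO. A second summit within TEX14, at 58659128 to 58659193, ranked 7, 19 and 11 in WT and 13, 15 and 16 in SLK-KO, beside a stretch 70.1% identical to RNU1-1.

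RNU2-63P, a U2 copy on chromosome 2 whose symbol the rule leaves out, had POL2 in all 6 libraries. The difference in mean log2 rank between SLK-KO and WT was 0.18, and the groups overlapped.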
